A study of Mus musculus with 6 samples.

Results

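SOCS-box substrate receptors are the subunits that choose the targets of CUL5 ubiquitin ligases. They were followed here as 37 listed genes, chosen by name: the Asb1 to Asb18, Spsb1 to Spsb4, Wsb1, Wsb2, Socs4 to Socs7, Rab40b, Rab40c, Pcmtd1 and Pcmtd2 genes, with Tulp4, Lrrc41, Lrr1, Klhdc1 and Neurl2. Of these, 32 had a row among the 28500 genes of the expression table. Asb9, Asb12, Asb15, Asb17 and Asb18 had none, so their expression was not analysed here. The libraries were made from colon epithelial cells of mice labelled male and aged 8 weeks, which had received neither DSS, the colitis-inducing agent, nor any other drug. There were 3 libraries of Ube2fflox mice and 3 of Ube2fΔIEC mice. Ube2f encodes a NEDD8-conjugating E2 enzyme. The sources used here do not name the Cre line or the exons flanked by loxP sites. Cells were released from colon pieces in EDTA and strained, without a sort, and the labels do not say whether a library holds 1 animal or a pool.

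A SOCS box is a short C-terminal domain that binds the Elongin B and Elongin C adaptor and, through it, the CUL5 scaffold with its RING partner RNF7. The part of the receptor outside the SOCS box (ankyrin repeats in ASB, a SPRY domain in SPSB, WD40 repeats in WSB and an SH2 domain in SOCS proteins) binds the substrate. UBE2F passes NEDD8 to CUL5 with RNF7, and this neddylation switches the ligase on. Receptors that use CUL5 share this scaffold, so which of them a tissue makes bears on which substrates are possible. Only transcripts were measured here.

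Libraries held 55971362 to 77524693 counts. Levels are given as FPKM, which is scaled by gene length and allows genes to be compared, or as CPM, counts relative to depth after TMM scaling, which was used to compare genotypes. Ube2f stood at 34.0, 42.1 and 32.1 CPM in Ube2fflox replicates 1 to 3 and at 17.2, 18.0 and 21.004 CPM in Ube2fΔIEC replicates 1 to 3. The genotypes did not overlap for the deleted gene (log2 fold change -0.95, SE 0.13), but the adjusted p was 0.0923 by the quasi-likelihood test of edgeR. The 9 epithelial markers, such as Epcam and Vil1, summed to between 13959 and 16428 CPM in every library. The 9 T and innate lymphoid markers summed to 35.6 to 121 CPM in Ube2fflox and 46.1 to 52.8 CPM in Ube2fΔIEC, and the 6 fibroblast markers to at most 4.02 CPM. Ube2fΔIEC replicate 1, labelled male, carried Xist at 494 CPM against at most 1.33 CPM elsewhere and had 0 counts of Ddx3y, Eif2s3y, Kdm5d and Uty. Values without that library are given beside the members that differ most and for the members as a group.

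A pair of receptor promoters are shown because their genes carried the highest level (Wsb1) and the largest difference between genotypes (Spsb1) among the expressed members, and the promoter of Socs3, a cytokine-induced relative, is shown because it holds the STAT-type motif that was searched. Each is the stretch of 250 bases before the annotated start (RefSeq, GRCm38.p6), 5′ to 3′ on the gene's strand. Wsb1 is at chr11:79254696-79254945 (minus strand), Spsb1 at chr4:149955007-149955256 (minus strand) and Socs3 at chr11:117969367-117969616 (minus strand). Capitals mark matches to TTCNNNGAA, the palindrome bound by STAT factors, and to CACGTG, the palindromic E-box.

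Wsb1: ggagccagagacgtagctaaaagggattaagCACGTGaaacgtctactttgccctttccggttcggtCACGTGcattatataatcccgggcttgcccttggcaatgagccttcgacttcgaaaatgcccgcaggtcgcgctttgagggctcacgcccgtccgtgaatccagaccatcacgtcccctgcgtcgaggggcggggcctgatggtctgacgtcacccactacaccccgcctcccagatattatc

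Spsb1: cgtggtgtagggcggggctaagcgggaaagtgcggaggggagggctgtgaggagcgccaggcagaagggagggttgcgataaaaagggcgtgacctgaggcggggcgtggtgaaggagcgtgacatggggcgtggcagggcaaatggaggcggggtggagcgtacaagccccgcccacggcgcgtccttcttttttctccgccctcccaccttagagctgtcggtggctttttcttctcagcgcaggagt

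Socs3: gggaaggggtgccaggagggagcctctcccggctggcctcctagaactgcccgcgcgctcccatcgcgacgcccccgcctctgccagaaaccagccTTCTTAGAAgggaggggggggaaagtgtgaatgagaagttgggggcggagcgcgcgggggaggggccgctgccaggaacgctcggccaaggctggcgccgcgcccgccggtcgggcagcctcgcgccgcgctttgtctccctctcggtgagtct

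RefSeq windows were matched for 31 of the 37 genes, also those without a row in the table, 43 windows in all because some genes have several starts. The 6 genes without a window were Asb3, Pcmtd1, Pcmtd2, Socs5, Socs6 and Socs7. Of the genes Socs4 to Socs7, only Socs4 was thus searched. TTCNNNGAA, which reads the same on both strands, was present in 0 of these 43 windows, against 7.02% of all 32851 promoter windows of that length. In the Socs3 window it lay at -154, counted from the start, as TTCTTAGAA. Of the other cytokine-induced SOCS genes, Cish and Socs1 had 0 matches in their windows, and no window was matched for Socs2. CACGTG, searched after the Wsb1 sequence had been seen, occurred 2 times before the upstream Wsb1 start, at -219 and -183, and in 6 of the 43 windows overall (Asb2, Asb15, Neurl2, Spsb3, Tulp4 and Wsb1). At least 1 match was present in 6.02% of all windows. At least 2 matches were present in 4 of the 43 windows, that of Wsb1 among them, and in 0.43% of all windows. The search was prompted by the Wsb1 window, which is itself counted, so these shares are no independent comparison. The upstream Wsb1 start is that of the sequence shown, and the other Wsb1 window held 0 matches. Letters that match a motif are a description of the window and were not tested for binding.

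Of the 32 genes with a row, 20 reached a mean of 1 FPKM over the 6 libraries and are called expressed here. The lowest of them was Asb1 at 1.03 FPKM, and the highest below the limit was Klhdc1 at 0.670 FPKM. Asb1 averaged 0.943 FPKM in Ube2fflox and 1.12 FPKM in Ube2fΔIEC, and 19 genes reached a mean of 1 FPKM in each genotype. Expressed members had a median of 4.03 FPKM. A single gene stood far above the rest: Wsb1, whose product targets the thyroid hormone-activating deiodinase DIO2 and the kinase HIPK2 in other systems. It was at 54.3, 75.2 and 63.2 FPKM in Ube2fflox and at 94.4, 84.1 and 90.4 FPKM in Ube2fΔIEC, and 454 of all 28500 genes had a higher mean FPKM.

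**Figure D1:**
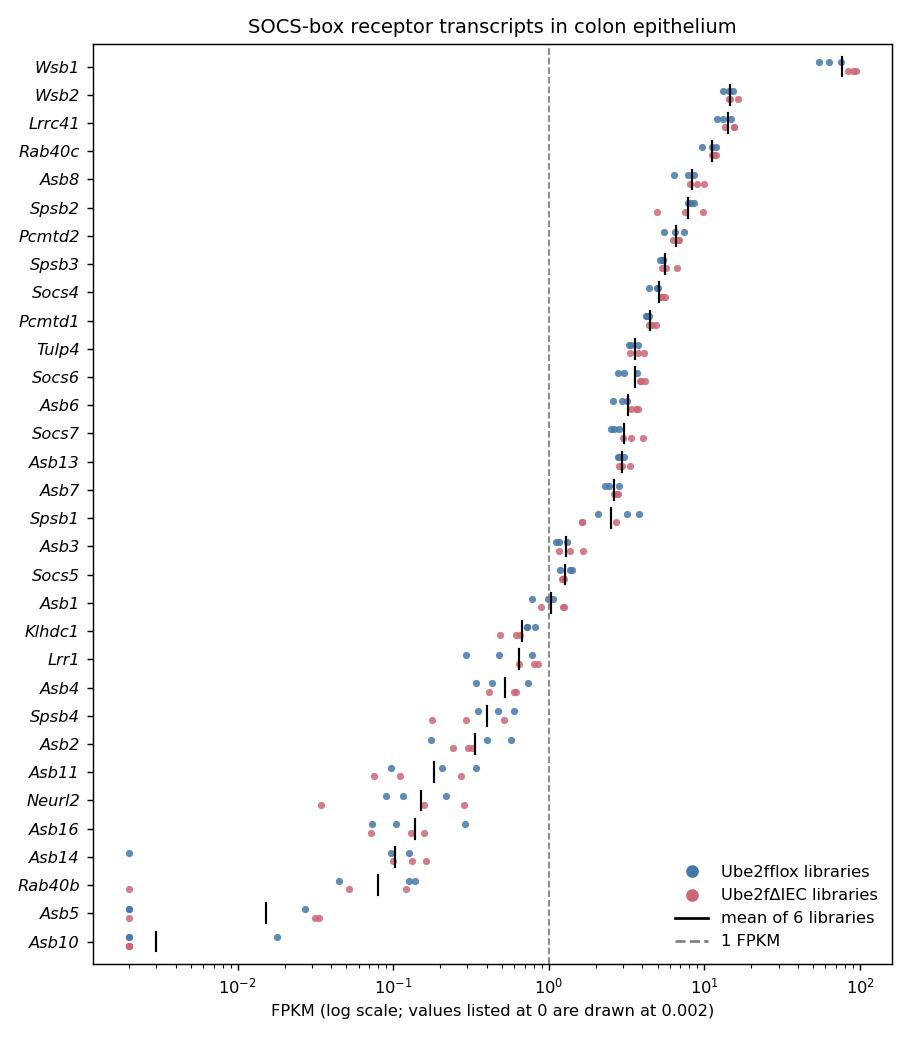
FPKM (log axis) of each receptor gene in the 6 libraries, with the mean as a black bar, genes ordered by mean, the 1 FPKM limit dashed and values of 0 drawn at the left edge. Wsb1 lies alone at the top with a mean of 76.9 FPKM, 20 genes lie at or above the limit and 12 below it.

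Next in order came Wsb2 (mean 14.7 FPKM), the WD40 relative of Wsb1, Lrrc41 (14.1 FPKM), a leucine-rich repeat receptor, and Rab40c (11.2 FPKM), a small GTPase with a SOCS box. Wsb2 ranged from 13.2 to 16.5 FPKM and Lrrc41 from 12.1 to 15.5 FPKM, so these neighbours in the order overlapped from library to library. Asb8 (8.29 FPKM) led the ankyrin-repeat family and Spsb2 (7.79 FPKM) the SPRY family. Pcmtd2 (6.53 FPKM) and Pcmtd1 (4.48 FPKM), which resemble the isoaspartyl repair methyltransferase, Spsb3 (5.61 FPKM) and Socs4 (5.10 FPKM) followed. Tulp4, a tubby-like protein, was at 3.59 FPKM. Reads of Spsb3 and Lrrc41 may include those of genes on the other strand, since 62.3% of Spsb3 exon bases are shared with Eme2 and 31.9% of Lrrc41 exon bases with Rad54l (GENCODE M21), and the sources do not say whether the libraries keep strand. The gene coordinates in the deposited table differ from those of GENCODE M21, so the counts may rest on other gene models than these shares.

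The families differed in how much of their repertoire the epithelium transcribed. In the ASB family 6 of the 13 genes with a row were expressed (Asb1, Asb3, Asb6, Asb7, Asb8 and Asb13), from 1.03 to 8.29 FPKM, and the other 7 were at most 0.522 FPKM. All 4 of Socs4 to Socs7, both WSB and both PCMTD genes were expressed, as were 3 of 4 SPSB genes. Rab40c was at 11.2 FPKM while its paralogue Rab40b, known for its part in invadopodia, was at 0.0800 FPKM, with 0 to 25 counts per library.

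The lowest members had few counts, and some of them are genes known from striated muscle. Asb5 had 0 to 7 counts per library and Asb10 had 4 counts in 1 library and 0 in the other 5, and neither entered the test. Asb14 had 0 to 34 counts, Asb16 17 to 70 counts and Asb11 19 to 70 counts. Neurl2, a muscle receptor in which beta-catenin is a known target, had 3 to 23 counts, and 32.0% of its exon bases are shared with Ctsa, at a mean of 119 CPM. The muscle-specific markers Ckm, Mylpf and Tnnt3 were each under 1 CPM on average, and Myh1, Myh2, Myh4 and Actc1 had no row. Acta1, also listed as a striated muscle marker, was at 97.1 to 150 CPM. Asb4, an imprinted gene, was at 0.522 FPKM. Asb2, an ankyrin-repeat receptor known from muscle and blood cells, was at 0.335 FPKM. Its CPM ran at 1.60, 0.731 and 2.52 in Ube2fflox and at 1.12, 1.19 and 0.915 in Ube2fΔIEC. Its highest library, Ube2fflox replicate 3, was also the one with the highest T and innate lymphoid sum (121 CPM). The lowest Asb2 library, Ube2fflox replicate 2, had the next highest sum (68.5 CPM), and Ube2fflox replicate 1 had the lowest sum (35.6 CPM). The part of such cells in Asb2 was not tested.

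Wsb1 alone made up 33.8%, 41.7% and 39.6% of the summed FPKM of the 32 genes in Ube2fflox and 46.5%, 42.9% and 45.4% in Ube2fΔIEC. The sum without Wsb1 was 96.5 to 106 FPKM in Ube2fflox and 109 to 112 FPKM in Ube2fΔIEC. FPKM sums follow the authors' scaling and not TMM, and with library totals the median of all genes tested moves by 0.15 (log2) toward Ube2fΔIEC. Wsb1 exceeded Wsb2 in FPKM by 3.57 to 5.23 times in Ube2fflox and by 5.11 to 6.60 times in Ube2fΔIEC. This ratio within a library does not depend on library scaling, and Ube2fflox replicate 2 (5.23) lay above Ube2fΔIEC replicate 2 (5.11). Socs4 exceeded Socs5 in FPKM by 3.12 to 4.24 times in Ube2fflox and by 4.15 to 4.48 times in Ube2fΔIEC, with 1 Ube2fflox library inside the Ube2fΔIEC range.

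**Figure D2:**
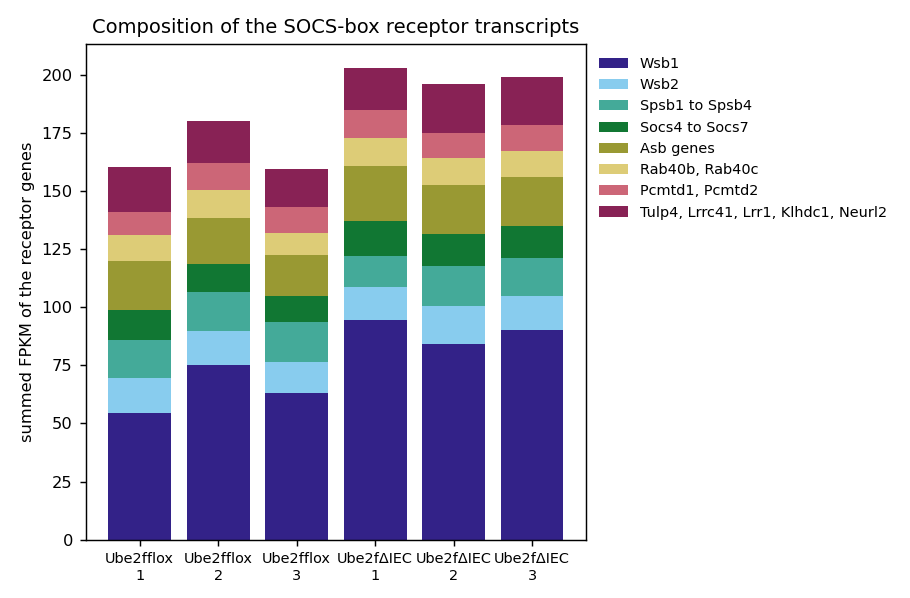
Summed FPKM of the receptor genes in each library, stacked by family with Wsb1 and Wsb2 apart. Wsb1 is the largest block in every library, from 33.8% of the sum in Ube2fflox replicate 1 to 46.5% in Ube2fΔIEC replicate 1.

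The study compares Ube2fΔIEC with Ube2fflox. No receptor gene passed the test: of 30 tested members 0 were higher and 0 lower in Ube2fΔIEC (edgeR quasi-likelihood, Benjamini-Hochberg over 17900 genes, adjusted p from 0.563 to 0.998). DESeq2 also called 0, but gave no adjusted p for Neurl2, Asb14 and Rab40b. Of all tested genes 8, or 0.0447%, passed with edgeR (0.0223% higher and 0.0223% lower), and 1.42% with DESeq2. At an unadjusted p under 0.05 stood 2 members, Wsb1 and Spsb1, or 6.67% of the 30, beside 8.18% of all genes and 9.64% of genes of at least 1 FPKM. Of the 30 log2 fold changes 11 were positive and 19 negative (median -0.06, against -0.0002 over all genes tested), and with library totals in place of TMM 21 were positive and 9 negative (median 0.10, against 0.15). Without Ube2fΔIEC replicate 1 the test called 0 of all 18547 genes kept, so the 0 members called there say nothing about the members. At an unadjusted p under 0.05 stood 1129 of those genes and 0 members, and 3 of the 30 log2 fold changes changed sign, those of Socs4, Tulp4 and Asb3.

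For the expressed members the absence of a call came with narrow intervals. The 95% interval of the log2 fold change lay inside -1 to 1 for 19 of the 20, with Spsb1 the exception, and inside -0.5 to 0.5 for 16, with Wsb1, Spsb2 and Socs5 added to the exceptions. For 12 of the 20 the log2 fold change itself was within 0.1 of 0 (60%), which 48.3% of the 11411 genes of that level also were. The coefficient of variation between libraries had a median of 7.07% in Ube2fflox and 7.48% in Ube2fΔIEC. Over all genes of at least 1 FPKM that median was 10.1% in Ube2fflox and 7.31% in Ube2fΔIEC. Of the 10 tested members below 1 FPKM, 1 (Asb4) had an interval inside -1 to 1, so for the other 9 the interval does not leave out a 2-fold difference. In bulk epithelium, fewer cells of a type and less RNA per cell cannot be told apart.

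**Figure D3:**
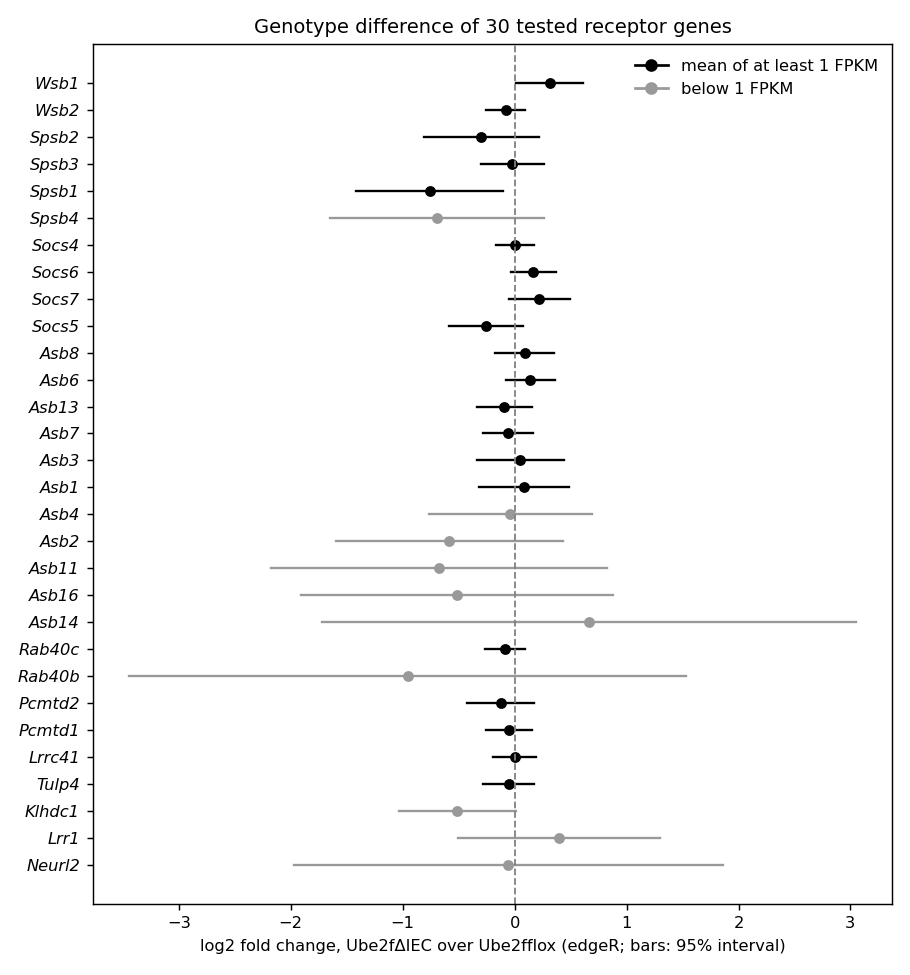
log2 fold change (Ube2fΔIEC over Ube2fflox) of the 30 tested genes with the 95% interval, by family and falling level, in black for genes of at least 1 FPKM and in grey for the rest. The intervals of Wsb1 and Spsb1 leave out 0, in opposite directions, and neither gene passed after adjustment.

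Wsb1 had 241, 346 and 313 CPM in Ube2fflox replicates 1 to 3 and 389, 348 and 382 CPM in Ube2fΔIEC replicates 1 to 3. Every Ube2fΔIEC library was above every Ube2fflox library, though Ube2fflox replicate 2 and Ube2fΔIEC replicate 2 were almost level, and Ube2fflox replicate 1 was the lowest. The means were 299.9 ± 53.8 and 373 ± 21.9 CPM (SD, n = 3 each), a log2 fold change of 0.31 (SE 0.13, 95% interval 0.01 to 0.61, edgeR adjusted p = 0.588, unadjusted p = 0.0424). It was 0.28 without Ube2fΔIEC replicate 1, 0.17 without Ube2fflox replicate 1 and 0.47 with library totals, and did not pass in any of these. Wsb2, reported to send the apoptosis trigger NOXA to degradation, had 99.2, 97.2 and 96.2 CPM in Ube2fflox and 86.5, 100.03 and 90.5 CPM in Ube2fΔIEC. Its groups overlapped, and the 95% interval of its log2 fold change ran from -0.25 to 0.09.

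In the SPSB family Spsb1, Spsb2 and Spsb4 bind inducible nitric oxide synthase (NOS2) and mark it for destruction, and Spsb1 also restrains the TGF-beta type II receptor. Spsb1 had 10.2, 19.2 and 17.4 CPM in Ube2fflox and 7.45, 7.49 and 12.7 CPM in Ube2fΔIEC. Ube2fflox replicate 1 lay below Ube2fΔIEC replicate 3, so the genotypes overlapped. The log2 fold change was -0.76 (SE 0.29, 95% interval -1.42 to -0.10, edgeR adjusted p = 0.563), the largest in size among the 20 expressed members. It was -0.63 without Ube2fΔIEC replicate 1 and -0.99 without Ube2fflox replicate 1, neither of them called. Within Ube2fflox, replicates 2 and 3 had more Spsb1, higher T and innate lymphoid sums and lower proliferation sums than replicate 1: T and innate lymphoid markers stood at 35.6, 68.5 and 121 CPM in Ube2fflox replicates 1 to 3, and the 10 proliferation markers at 630, 421 and 398 CPM. In Ube2fΔIEC the proliferation sums were 685, 710 and 617 CPM, and the part of either cell population in the Spsb1 values was not tested.

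Spsb2 had 15.7, 14.9 and 16.9 CPM in Ube2fflox and 8.57, 16.9 and 13.1 CPM in Ube2fΔIEC. A single library, Ube2fΔIEC replicate 1, was low, and without it the log2 fold change went from -0.30 (SE 0.22) to -0.08, while without Ube2fΔIEC replicate 2 it was -0.54, and none of these was called. Spsb3, reported to direct nuclear cGAS to degradation in human cells, was at 17.0 ± 1.18 against 16.8 ± 1.99 CPM, and Spsb4, at 0.401 FPKM, at 2.52 ± 0.782 against 1.55 ± 0.801 CPM (SD, n = 3 each). All 4 SPSB log2 fold changes were negative, none of them called, and with library totals that of Spsb3 was positive (0.14).

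Socs4 to Socs7 differ from the cytokine-induced SOCS genes in that they act mainly on growth factor receptors, EGFR for Socs4 and Socs5. Socs4 was level, at 38.6 ± 1.24 against 38.6 ± 1.19 CPM, with a log2 fold change of 0.002 (SE 0.07). Socs5 had 8.41, 10.1 and 11.3 CPM in Ube2fflox and 8.25, 8.40 and 8.22 CPM in Ube2fΔIEC. The groups did not overlap, by a margin of about 0.01 CPM between Ube2fflox replicate 1 and Ube2fΔIEC replicate 2, and the log2 fold change of -0.26 (SE 0.14) was not called. It was -0.25 without Ube2fΔIEC replicate 1 and -0.16 without Ube2fflox replicate 3. With library totals it was -0.10, and on the log2(FPKM + 1) scale -0.05. Socs6, which binds the KIT receptor, had 46.2, 39.8 and 39.5 CPM in Ube2fflox and 45.9, 49.0 and 46.2 CPM in Ube2fΔIEC. Ube2fflox replicate 1 sat among the Ube2fΔIEC libraries (log2 fold change 0.17, SE 0.09, and 0.19 without Ube2fΔIEC replicate 1). Socs7, an adaptor that binds NCK, had 23.3, 22.2 and 23.0 CPM in Ube2fflox and 30.5, 22.8 and 26.5 CPM in Ube2fΔIEC. It was highest in Ube2fΔIEC replicate 1 (log2 fold change 0.22, SE 0.12), and its groups overlapped. The log2 fold change was 0.11 without that library and 0.32 without Ube2fΔIEC replicate 2, neither of them called.

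**Figure D4:**
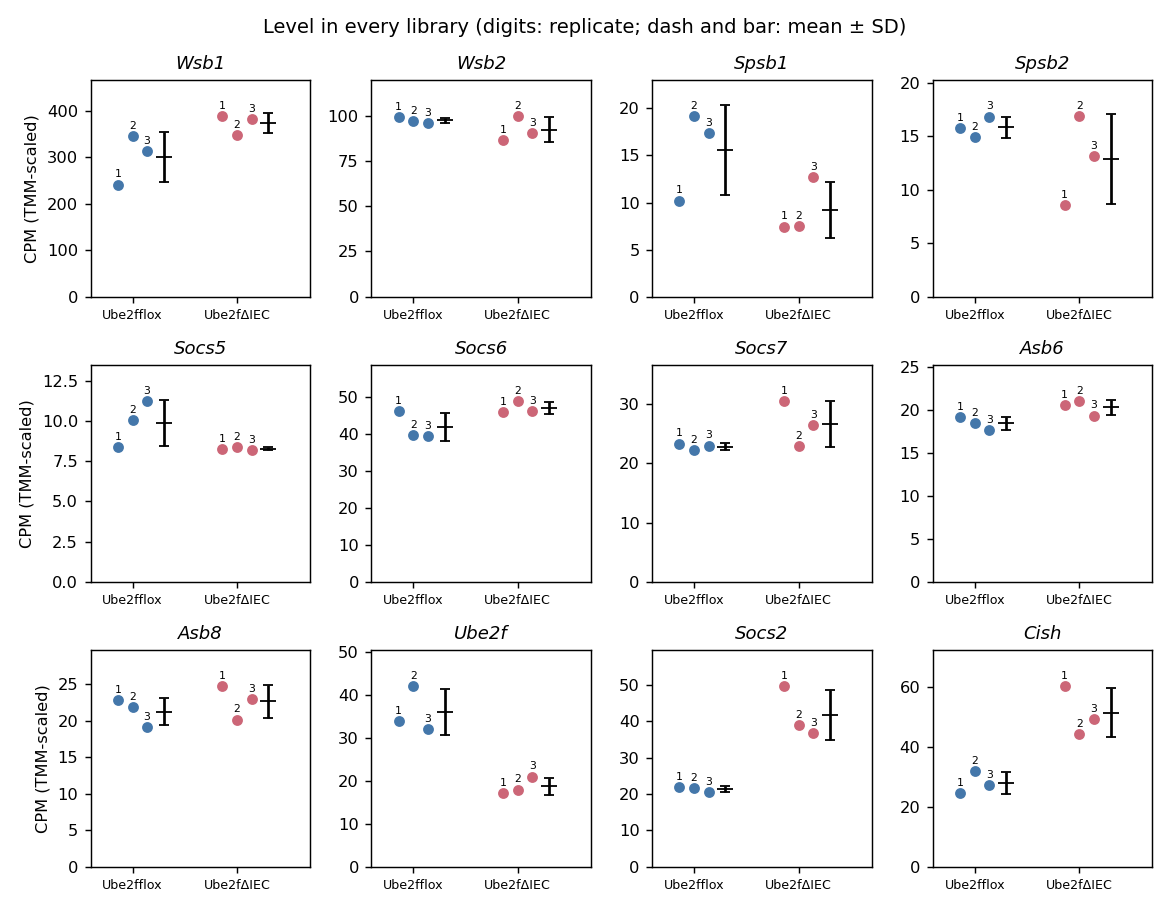
CPM in each library (digits give the replicate) with mean ± SD per genotype for 9 receptor genes and, for comparison, Ube2f, Socs2 and Cish; each vertical axis starts at 0. The receptor genes overlap or nearly touch between genotypes, whereas Ube2f, Socs2 and Cish are separated.

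Among the ASB genes Asb6 did not overlap between genotypes. It had 19.2, 18.5 and 17.6 CPM in Ube2fflox and 20.5, 21.05 and 19.3 CPM in Ube2fΔIEC (log2 fold change 0.14, SE 0.09, not called). Without Ube2fΔIEC replicate 1 the Asb6 log2 fold change was 0.13. Asb8 had 22.8, 21.8 and 19.1 CPM in Ube2fflox and 24.7, 20.2 and 23.0 CPM in Ube2fΔIEC, with overlap. The remaining expressed ASB genes had log2 fold changes from -0.09 to 0.08: Asb13, reported to target the transcription factor SNAI2 in human cells, was at 18.2 ± 0.984 against 17.1 ± 1.27 CPM, and Asb7, reported to target the histone methyltransferase SUV39H1, at 19.1 ± 1.21 against 18.4 ± 0.350 CPM. Asb3, linked to TNF receptor 2, was at 7.60 ± 0.776 against 7.88 ± 1.31 CPM, and Asb1 at 7.08 ± 0.821 against 7.51 ± 1.25 CPM (SD, n = 3 each throughout). With Wsb1, Socs5 and Asb6, 3 of 20 expressed members (15%) did not overlap between genotypes, 2 higher and 1 lower in Ube2fΔIEC, beside 15.7% of all genes of that level and, over all genes tested, 14.2% (7.26% higher and 6.9% lower).

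Of the single-gene receptors Lrrc41 had 60.9, 56.1 and 56.1 CPM in Ube2fflox and 52.4, 59.8 and 61.1 CPM in Ube2fΔIEC, with equal means to 3 digits (57.7 CPM). Rab40c, which partners protein phosphatase 6 in human cells, had 38.7, 42.4 and 37.3 CPM in Ube2fflox and 38.2, 36.9 and 36.5 CPM in Ube2fΔIEC. Both overlapped between genotypes. Tulp4 was at 72.9 ± 5.26 against 70.3 ± 7.76 CPM, Pcmtd1 at 33.6 ± 2.82 against 32.3 ± 1.33 CPM and Pcmtd2 at 31.6 ± 5.39 against 29.0 ± 1.28 CPM. A pair of low genes lie in the same region of chromosome 12 (GRCm38): Lrr1 at 69168814 to 69179009 and Klhdc1 at 69241176 to 69284632, both on the plus strand. Klhdc1, a kelch-repeat receptor for proteins that end in glycine, was at 2.77 ± 0.209 against 1.94 ± 0.310 CPM, without overlap (log2 fold change -0.51, SE 0.23, edgeR adjusted p = 0.619), and its log2 fold change was -0.39 without Ube2fΔIEC replicate 1. Lrr1, which works mainly with CUL2 in taking the replicative helicase off finished DNA, had 1.31, 0.512 and 0.917 CPM in Ube2fflox and 1.24, 1.33 and 1.04 CPM in Ube2fΔIEC. The lowest Lrr1 levels were in Ube2fflox replicates 2 and 3, which also had the lowest proliferation sums, and the part of proliferating cells in the Lrr1 values was not tested.

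The ligase core around the receptors was likewise without a call by edgeR. Of 20 genes of the CUL5 core and neddylation list, 0 were called higher and 0 lower, beside 0.0447% of all genes tested. DESeq2 called 1, Ube2f. By edgeR, Ube2f was lower without overlap (log2 fold change -0.95) but not called. An unadjusted p under 0.05 (edgeR quasi-likelihood) was reached by 2 of the 20, beside 8.18% of all genes tested. Cul5, the scaffold, was at 24.6 ± 2.16 against 26.7 ± 1.79 CPM. Rnf7, its RING partner, had 16.1, 14.4 and 27.9 CPM in Ube2fflox and 31.0, 29.1 and 28.1 CPM in Ube2fΔIEC, without overlap, though Ube2fflox replicate 3 nearly reached the Ube2fΔIEC libraries (log2 fold change 0.59, SE 0.23, edgeR adjusted p = 0.564). Dcun1d2, a cofactor of neddylation, was at 19.4 ± 0.557 against 22.0 ± 0.663 CPM (not called). Elob and Nedd8, the members with the highest FPKM in that list, had log2 fold changes of 0.04 and -0.09. Of the 11 CUL2 receptors 10 were tested and 0 passed, with Klhdc3 (-0.14), Appbp2 (0.12) and Klhdc10 (0.15) at the smallest p.

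The cytokine-induced SOCS genes belong to the same domain family, and their transcripts are known to be induced by STAT factors. The part of STAT factors in the values below was not tested. Socs2 was at 21.4 ± 0.729 against 41.8 ± 6.89 CPM and Cish at 27.9 ± 3.61 against 51.2 ± 8.15 CPM (SD, n = 3 each). Neither passed over all genes with edgeR (adjusted p = 0.0667 and 0.108, quasi-likelihood with Benjamini-Hochberg), and DESeq2 called both. Without Ube2fΔIEC replicate 1 the log2 fold changes were 0.83 for Socs2 and 0.75 for Cish, against 0.97 and 0.88 with it. Socs3 ranged from 19.2 to 71.5 CPM within Ube2fflox alone and from 35.6 to 41.9 CPM in Ube2fΔIEC, and Socs1 was at 5.22 ± 2.15 against 5.12 ± 0.350 CPM.

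Transcripts of proteins reported as targets of the receptors were read as RNA, so their breakdown was not measured. Of 16 listed 14 were tested and 0 passed, beside 0.0447% of all genes tested. By edgeR quasi-likelihood 3 of the 14 (Mcm7, Suv39h1 and Hipk2) had an unadjusted p under 0.05, beside 8.18% of all genes tested. Mcm7, a subunit of the helicase that Lrr1 acts on, was at 45.2 ± 10.2 against 60.9 ± 2.50 CPM, Suv39h1 at 14.1 ± 3.22 against 19.6 ± 2.93 CPM and Hipk2, a Wsb1 target, at 48.6 ± 9.92 against 62.3 ± 4.72 CPM. All 3 were lowest in Ube2fflox replicate 2 or 3, the libraries with the lowest proliferation sums, and the part of those cells was not tested. Ctnnb1, the gene of beta-catenin and the target of highest FPKM, had a log2 fold change of -0.04, and of 0.02 without Ube2fΔIEC replicate 1. Pmaip1, the gene of the Wsb2 target NOXA, was at 71.2 ± 17.9 against 65.6 ± 4.76 CPM, and Nos2, the target of the SPSB proteins, at 3.81 ± 1.87 against 3.77 ± 1.64 CPM. Dio2 and Snai2 were too low to be tested.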

How the data were processed

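Poly(A) RNA was sequenced in paired ends, per the series text. For each gene and library the deposited table holds 1 count and 1 FPKM, per the file headers. FPKM values were scaled by the authors for transcript length and depth, so they depend on the gene model. The submitters' processing notes name mm10, edgeR, DESeq2, StringTie 2.1.6, HISAT2 2.2.1 and cutadapt 1.9. The counting step and its use of strand are not stated in the labels. The series text speaks of intestinal tissue and the labels' protocol of epithelial cells. Positions and shared exon bases are those of GENCODE M21 (GRCm38), by gene ID; the coordinates in the deposited table differ from them although the notes name mm10.

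Genes passing filterByExpr (17900 of 28500) were scaled by TMM and tested for genotype by quasi-likelihood in edgeR 4.0.16 with limma 3.58.1 under R 4.3.3 (2-sided, Benjamini-Hochberg over all genes kept, threshold 0.05). A standard error is the log2 fold change over the square root of F. The biological coefficient of variation was 24.8%. Alternatives were DESeq2 1.42.0, its size factors, library totals, no filter, a replicate block, limma on log2(FPKM + 1) and log2(FPKM + 0.1), and each library left out. The floor of 3 counts is 0.0376 to 0.0529 CPM and covers counting error only. Exact permutation of 3 against 3 libraries gives p = 0.1 at best, so none is quoted. P-values measure the spread between these libraries. The code was tested on simulated data.

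Members and context lists were chosen with earlier results of these data known. By rule, values in every library are given for the 6 members of highest FPKM, the 8 expressed members of smallest p, and expressed members whose genotypes do not overlap, and of each context list the 3 genes of smallest p and the 2 of highest FPKM are named, except 1 gene that is not reported here. Asb2, Lrr1, Klhdc1, Cul5, Socs1, Pmaip1 and Nos2 were added after their values were seen.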

Additional observations from a re-analysis of the deposited data

How the results depend on the processing

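No member was called under any of the 13 alternatives, and of 143 values of the 11 members that the naming rule chose 13 changed sign, all of genes near 0. Those of Wsb2 went from -0.0785 to 0.0758 with library totals, 0.0765 with log2(FPKM + 1) and 0.0812 with log2(FPKM + 0.1), and those of Rab40c from -0.0861 to 0.0677, 0.0719 and 0.0780. Lrrc41 (0.000896) went to -0.00345 with DESeq2, -0.00356 with DESeq2 size factors in edgeR and -0.00117 with the replicate block, and ran from -0.0415 to 0.0658 when single libraries were left out. The member median moved from -0.0562 to 0.101, 0.0762 and 0.103 with library totals, log2(FPKM + 1) and log2(FPKM + 0.1), while with library totals that of all genes shifted by 0.15. The number of genes called over all genes, 8, was 255 with DESeq2, 18 with library totals (13 higher, 5 lower, against 4 and 4), 3 with log2(FPKM + 1) and 5 with log2(FPKM + 0.1). It ran from 0 to 90 when single libraries were left out: 90 without Ube2fflox replicate 1, 1 without Ube2fΔIEC replicate 2, and 0 without Ube2fflox replicate 2 or Ube2fΔIEC replicate 1 or 3. Ube2f was called by DESeq2 (-0.95, adjusted p = 9.32e-08) and without Ube2fflox replicate 1 (-0.99, adjusted p = 0.0461), and its log2 fold change ran from -1.04 to -0.82 in the leave-outs. The CUL5 core list had 1 called gene with DESeq2 and 0 to 1 in the leave-outs, and the cytokine-induced SOCS list 2 with DESeq2, 1 with library totals and 0 to 1 in the leave-outs. The cause of these shifts was not tested. The expressed count of 20 stayed within 1.5 times for limits of 0.5 and 2 FPKM and in the leave-outs. The labels do not say whether shared replicate numbers pair the mice. Same-numbered libraries correlated in their deviations from the genotype means at 0.081, -0.015 and 0.083, and differently numbered ones at -0.109 to 0.037. With 3 libraries per genotype these correlations cannot decide whether mice were paired. The block gave 10 called genes and 0 called members. Leave-outs have fewer libraries.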
